A study of Mus musculus and Homo sapiens with 10 samples.

Results

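The genes described here are 7 mouse genes for the digestion and uptake of sugars in the small intestine: the transporters Slc5a1, Slc2a2 and Slc2a5 and the brush border disaccharidases Sis, Lct, Treh and Mgam. They were chosen by name, with earlier results of these data known. DNA break ends were counted over their RefSeq gene bodies in the mouse genome build GRCm38. All 7 were found among 21887 protein-coding genes on the main chromosomes, all 7 were among the 17809 genes with enough break ends to be tested, and none overlapped another gene.

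Break ends were mapped by in-suspension BLISS (sBLISS), which ligates an adapter to the blunted ends of DNA double-strand breaks and reads the base at which each end lies. The series holds 10 libraries, of which 6 are of mouse enterocytes, the nutrient-absorbing cells of the villus, isolated from jejunum. They form 3 groups, called gates here, that the labels define by the cell surface marker Cd73, the ectonucleotidase encoded by Nt5e: 2 libraries each are labelled Cd73 high, Cd73 mid and Cd73 negative. No treatment, genotype, strain or age is given for any gate, and the libraries of a gate carry the numbers M1 and M2, with no statement that these are separate mice, so the spread that the tests use is that between libraries and may be technical.

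Villus enterocytes take up sugar as monosaccharides. Enzymes anchored in the brush border split disaccharides and short starch chains, SGLT1 and GLUT5 carry the products into the cell, and GLUT2 passes them on towards the blood. In mouse, enterocytes change their gene expression as they move up the villus, and Nt5e is highest towards the villus tip. A break end count is a measure of broken DNA and not of expression, so neither the level of these genes' RNA nor the identity of the sorted cells could be checked from these files.

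Break ends in the nuclear chromosomes numbered 1522615 and 1272771 in the Cd73 high libraries (M1 and M2), 4757961 and 5160171 in the mid libraries, and 13043514 and 12585228 in the negative libraries. Depth therefore differed between the gates, without overlap. The share of break ends at repeated positions, those carrying more than 1, was 6.32% and 6.38% in the high libraries, 12.8% and 16.6% in the mid libraries, and 25.5% and 26.2% in the negative libraries. Whether the counts are of molecules or of reads is not given in the sources used here, and the intervals below cover counting error only. Each gene is described by its density, the break ends per kb of gene body per 1000000 nuclear break ends of the library, which makes genes of different length and libraries of different depth comparable.

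The sequence before each gene's start is shown first for 4 members, because their break ends there differ most or because they carry the sequence motifs described with them. The sequences are the 250 bases upstream of the annotated start, from RefSeq (GRCm38.p6), written on the strand of the gene, and capitals mark bases with at least 2 break ends over the 6 libraries together. Slc5a1 (chr5:33103969-33104218, plus strand) and Slc2a5 (chr4:150119094-150119343, plus strand) are the transporter genes with most and fewest break ends there, and Sis (chr3:72967864-72968113, minus strand) and Lct (chr1:128328319-128328568, minus strand) are disaccharidase genes.
Slc5a1: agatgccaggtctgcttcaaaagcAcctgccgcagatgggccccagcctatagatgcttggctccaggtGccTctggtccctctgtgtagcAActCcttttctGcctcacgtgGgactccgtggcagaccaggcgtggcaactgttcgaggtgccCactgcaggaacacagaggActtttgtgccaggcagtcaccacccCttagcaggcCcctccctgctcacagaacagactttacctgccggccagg
Slc2a5: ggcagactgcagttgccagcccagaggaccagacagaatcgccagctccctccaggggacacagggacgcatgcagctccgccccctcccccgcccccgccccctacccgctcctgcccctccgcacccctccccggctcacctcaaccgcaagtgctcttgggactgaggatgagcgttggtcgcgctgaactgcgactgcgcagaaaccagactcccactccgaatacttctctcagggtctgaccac
Sis: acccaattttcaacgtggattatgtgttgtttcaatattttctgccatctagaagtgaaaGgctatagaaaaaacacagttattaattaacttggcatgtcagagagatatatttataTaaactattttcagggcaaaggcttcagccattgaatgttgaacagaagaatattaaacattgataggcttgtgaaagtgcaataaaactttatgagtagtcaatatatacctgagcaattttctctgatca
Lct: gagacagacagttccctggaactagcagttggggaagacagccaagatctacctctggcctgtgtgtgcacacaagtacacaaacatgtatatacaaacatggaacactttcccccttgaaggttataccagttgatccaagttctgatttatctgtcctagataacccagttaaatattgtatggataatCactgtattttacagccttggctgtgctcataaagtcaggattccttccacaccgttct

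Of these, the Slc5a1 sequence carried 12 bases in capitals and 83 break ends over the 6 libraries, and the Slc2a5 sequence carried none in capitals and 3 break ends. The other members had 14 (Sis), 12 (Lct), 14 (Slc2a2), 15 (Treh) and 8 (Mgam). The Slc2a5 sequence was 66.4% G and C, more than 81.4% of all 17492 promoters in the table, and the Sis sequence was 31.6%, more than 2.65% of them.

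Slc5a1 encodes SGLT1, the sodium-coupled transporter that brings glucose and galactose into the enterocyte. The gene (GRCm38 5:33104219-33162699, plus strand) is 58.5 kb long. Its body held 54 and 54 break ends in the high libraries, 210 and 229 in mid, and 740 and 677 in negative. As densities these were 0.606 and 0.725 in high, 0.755 and 0.759 in mid, and 0.970 and 0.920 in negative. In density the high libraries were the lowest and the negative libraries the highest, with no overlap between gates. The share of all genes in this order was not counted in density, here or for the genes that follow. With the scaling used for the comparisons further below, Slc5a1 did not keep this order between high and mid.

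Slc2a2 encodes GLUT2, the basolateral glucose, galactose and fructose transporter (3:28697903-28728361, plus strand). Densities were 0.453 and 0.516 in high, 0.669 and 0.681 in mid, and 0.745 and 0.853 in negative, from 21 and 20, 97 and 107, and 296 and 327 break ends. No 2 gates overlapped for this gene, and the order was high, mid, negative.

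Slc2a5 encodes GLUT5, the apical fructose transporter (4:150119344-150144168, plus strand, 24.8 kb). It held 21 and 16 break ends in high, 79 and 149 in mid, and 301 and 324 in negative, or densities of 0.556 and 0.506 in high, 0.669 and 1.16 in mid, and 0.930 and 1.04 in negative. The high libraries were the lowest, while the 2 mid libraries lay far apart, one below and the other above both negative libraries. In the negative gate Slc2a5 was the densest of the 7 genes, at 0.983 ± 0.0760 (SD, n = 2), followed by Slc5a1 at 0.945 ± 0.0355, and these neighbours in the order did not differ beyond their spread.

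Among the disaccharidases, Sis encodes sucrase-isomaltase (3:72888557-72967863, minus strand). Its densities were 0.364 and 0.386 in high, 0.453 and 0.459 in mid, and 0.564 and 0.551 in negative, from 44 and 39, 171 and 188, and 583 and 550 break ends, and the 3 gates did not overlap. Lct encodes lactase, which splits milk sugar (1:128284756-128328318, minus strand). Its densities were 0.392 and 0.595 in high, 0.531 and 0.574 in mid, and 0.575 and 0.675 in negative. Here the 2 high libraries spanned both mid libraries and reached above the lower negative one, so the gates overlapped.

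Treh encodes trehalase, the enzyme for the disaccharide trehalose, and is the shortest member (9:44673233-44686305, plus strand, 13.1 kb). It held 9 and 8 break ends in high, 36 and 50 in mid, and 138 and 117 in negative, with densities of 0.452 and 0.481, 0.579 and 0.741, and 0.809 and 0.711. High lay below the other gates, mid and negative overlapped, and the 95% Poisson interval of the first high library reached 0.207 to 0.858, which includes both negative values.

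Mgam encodes maltase-glucoamylase and is the longest member (6:40628831-40769123, plus strand, 140.3 kb). With 99 and 81 break ends in high, 304 and 336 in mid, and 936 and 896 in negative, its densities were 0.463 and 0.454, 0.455 and 0.464, and 0.511 and 0.507. The high and mid gates overlapped, both lay below the negative gate, and the whole span over the 6 libraries was narrower than for any other member.

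**Figure D1:**
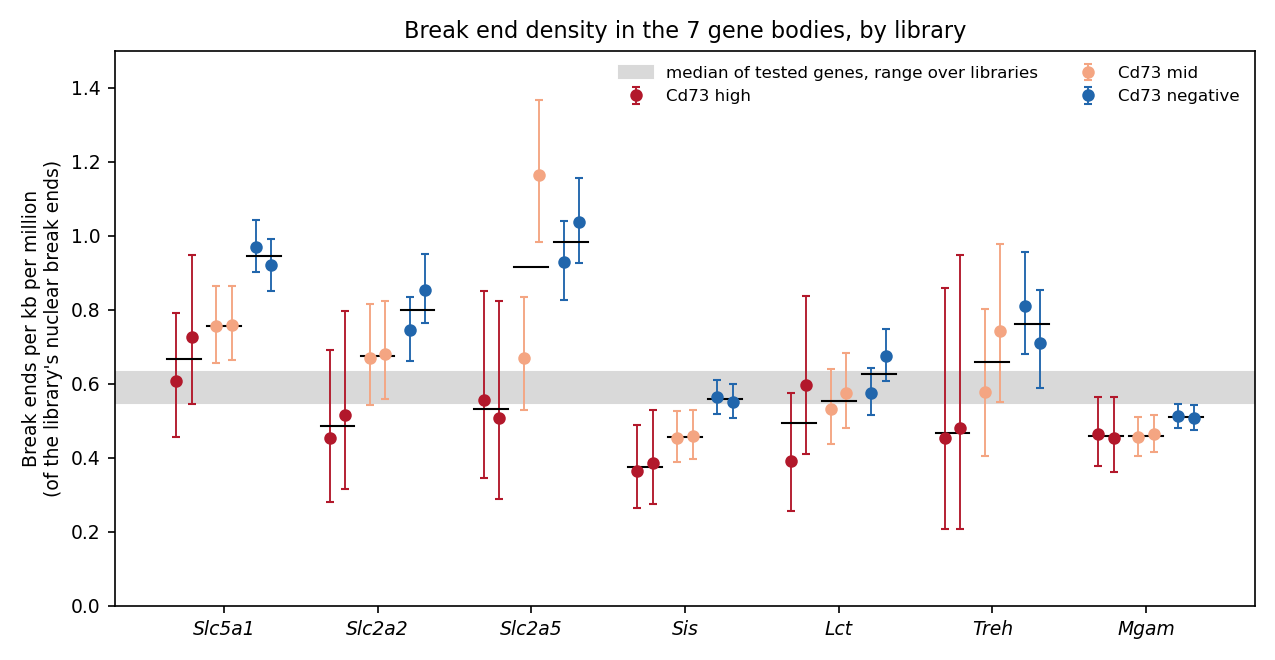
Density of break ends in the 7 gene bodies, in break ends per kb per 1000000 nuclear break ends; points are libraries with 95% Poisson intervals (counting error only), black bars are gate means, and the grey band is the range over the 6 libraries of the median density of all tested genes. The Slc2a5 high libraries sit at 0.556 and 0.506 against 0.930 and 1.04 in negative, while the Mgam points of all gates lie between 0.454 and 0.511.

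Summed over the 7 genes, break ends per 1000000 were 180.0 and 197.2 in the high libraries, 211.6 and 230.2 in mid, and 254.6 and 259.1 in negative, with no overlap between gates. The median density of all tested genes was also lower in high than in negative. It was 0.565 and 0.547 in high, 0.571 and 0.607 in mid, and 0.603 and 0.633 in negative. Of the 7 members, 1 and 2 lay above that median in the high libraries, 4 and 4 in mid, and 4 and 5 in negative. In high the genes above it were Slc5a1 in both libraries and Lct in M2.

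The main comparison asked whether break ends over these genes differed between Cd73 high and Cd73 negative enterocytes. All 7 genes had a lower value in high, by a median of -0.45 on the log2 scale, with Slc2a5 lowest and Mgam close to 0, but no member passed the test over all genes. The median over all 17809 tested genes was -0.00217, and 50.3% of them were negative. Since the 7 genes were chosen with earlier results of these data known, their shared sign is a description and not a test. Differences are log2 fold changes from edgeR's quasi-likelihood test, scaled by TMM and adjusted by Benjamini-Hochberg over all tested genes, with an adjusted p under 0.05 called. At that threshold 0 of 7 members were called, against 0.00562% of all genes, a single gene (Cdk5rap2, higher in high). An unadjusted p under 0.05 was found for 4 members by edgeR, against 8.74% of all genes (4.10% lower in high), and for 2 members by DESeq2, against 3.95% of all genes. In TMM-scaled counts per 1000000 of gene body counts (CPM), on which gates are compared from here on, the libraries of high lay wholly below those of negative for 5 members, all but Lct and Mgam, and for 21.0% of all genes.

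Slc2a5 averaged 27.7 ± 1.41 CPM in high and 46.9 ± 1.95 CPM in negative (SD, n = 2 each). The log2 fold change was -0.76 ± 0.25 (SE; edgeR, adjusted p = 0.344). As a ratio this is 0.592, with a 95% interval of 0.421 to 0.832. Slc2a2 averaged 31.0 ± 3.30 CPM in high and 46.8 ± 2.80 CPM in negative, with a log2 fold change of -0.60 ± 0.24 and an edgeR adjusted p of 0.454. For Sis, edgeR gave -0.45 ± 0.19 (adjusted p = 0.469) and for Slc5a1 -0.39 ± 0.17 (adjusted p = 0.504). Without high M1, Slc5a1 was at -0.25, Sis at -0.39, Slc2a2 at -0.49 and Slc2a5 at -0.82. Without high M2 the values were -0.54 for Slc5a1, -0.51 for Sis, -0.71 for Slc2a2 and -0.72 for Slc2a5. These fits leave a single high library, so no p-value is read from them. Treh had -0.58 ± 0.37 and an edgeR adjusted p of 0.688, the widest error of the 7 on the fewest break ends. Lct had -0.24 ± 0.22 (edgeR adjusted p = 0.804), and its sign depended on 1 library: without high M1 its value was 0.07, and without high M2 it was -0.57. Mgam averaged 135.1 ± 0.103 CPM in high and 137.6 ± 5.68 CPM in negative, a log2 fold change of -0.03 ± 0.15 (edgeR adjusted p = 0.980), and turned to 0.01 without negative M1.

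Over all tested genes split by mean density into 4 groups of equal size, the median log2 fold change of high minus negative was 0.15, 0.04, -0.04 and -0.19, lowest density first. Sis, Lct and Mgam lay in the second lowest group and Slc5a1, Slc2a2, Slc2a5 and Treh in the third, and all 7 members had values below the median of their own group. When each position was counted once, the 7 log2 fold changes ran between -0.66 and -0.15, and with every library thinned to the shallowest depth, those of the 6 members that could be tested ran between -0.74 and -0.00476. Slc2a2 moved most on thinning, to -0.30 (edgeR, unadjusted p = 0.345).

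Cd73 mid against Cd73 negative gave values of the same sign as high minus negative. They were smaller in size for every member except Mgam, at -0.09 against -0.03. All 7 log2 fold changes were negative, between -0.27 for Slc5a1 and -0.04 for Slc2a5, with a median of -0.15 against 0.00295 over all genes. None was called (0% of all genes; 563 genes had an unadjusted p under 0.05 by edgeR and 51 by DESeq2). Slc5a1 (-0.27 ± 0.13, edgeR adjusted p = 0.998) was the member with an unadjusted p under 0.05, and 3.16% of all genes had one. In 5 members, Slc2a5 and Treh excepted, mid lay below negative with no overlap, against 15.9% of all genes. Slc2a5 rested on the mid pair that lay apart: its value was 0.25 without mid M1.

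Cd73 high against Cd73 mid gave negative values for 6 of 7 members and 0.07 ± 0.16 for Mgam, with a median of -0.21 against 0.00190 over all genes. None was called (0% of all genes; 804 genes had an unadjusted p under 0.05 by edgeR and 249 by DESeq2). Slc2a5 had the lowest value, -0.71 ± 0.26 (edgeR adjusted p = 0.9998), from 27.7 ± 1.41 CPM in high and 45.1 ± 15.3 CPM in mid (SD, n = 2 each). It was the member with an unadjusted p under 0.05, which 4.51% of all genes had. The value rested on the mid pair: it was -0.31 without mid M2, with an unadjusted p above 0.05, and -1.01 without mid M1. High lay below mid with no overlap for 4 members, Slc2a2, Slc2a5, Sis and Treh, against 17.2% of all genes, and above it for Mgam, against 16.6%. Slc5a1, whose gates did not overlap in density, had 73.7 and 90.0 CPM in high and 91.0 and 85.9 CPM in mid. These 3 comparisons share libraries and do not support each other.

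Over the 3 gates together, every high library lay below every mid library and every mid library below every negative library for Slc2a2 and Sis, and for 2.27% of all genes. In edgeR's test for any difference among gates, 4 members had an unadjusted p under 0.05 (Slc2a5, Slc5a1, Sis and Slc2a2, between 0.00940 and 0.0412), as did 5.55% of all genes, and no member was called, against 0.00562% of all genes.

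**Figure D2:**
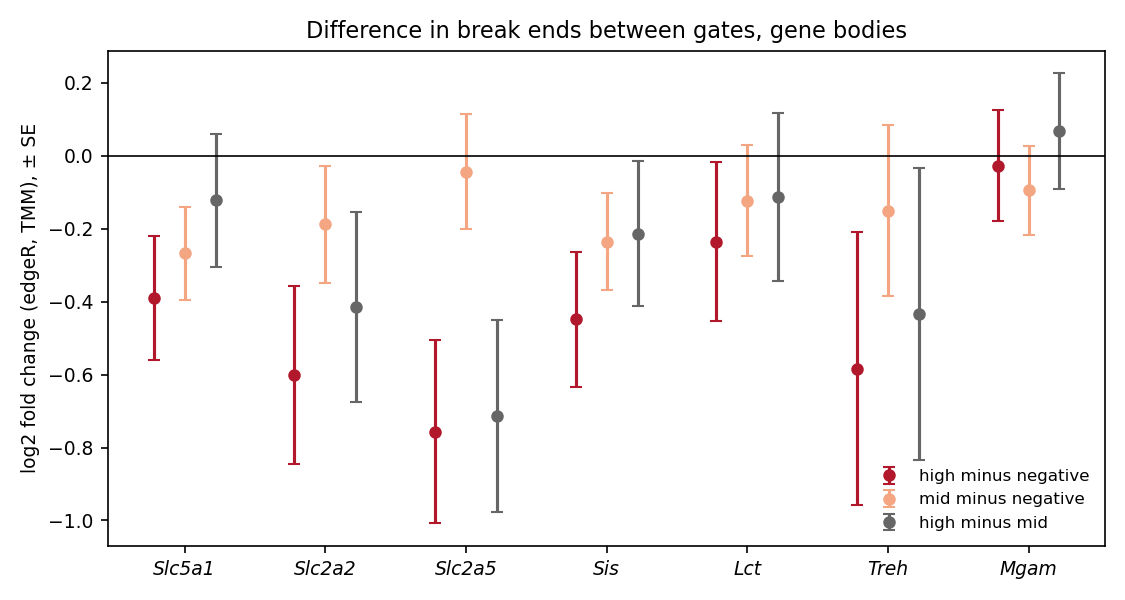
Log2 fold change of break ends in the 7 gene bodies (edgeR, TMM) with its standard error as the bar, for high minus negative, mid minus negative and high minus mid. Slc2a5 lies at -0.76 and -0.71 in the comparisons with the high gate and at -0.04 in mid minus negative, and Mgam lies within 0.10 of 0 in all 3.

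Over the 6 libraries together, the first kb of Slc5a1 was the densest kb of that gene, although in high M2 the kb that begins 6 kb after the start held 5 break ends against 4. The window of 1 kb on each side of the start held 8 and 7 break ends in high, 22 and 48 in mid, and 119 and 142 in negative. Its density was 4.06 ± 0.383 times that of the body in high, 4.59 ± 2.17 times in mid and 5.41 ± 1.01 times in negative (SD, n = 2 each). In negative it exceeded the start windows of 94.1% and 94.9% of 14124 genes, in mid those of 73.9% and 92.5%, and in high those of 76.1% and 81.2%. Between high and negative the log2 fold change of the window was -0.42 ± 0.38 (edgeR, adjusted p = 0.937), from values that lay apart but on few break ends in high. With each position counted once it was 0.04.

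Break ends gathered at single bases of this start. The base 50 after the start (5:33104269) held 1 and 1 break ends in high, 2 and 10 in mid, and 18 and 20 in negative. In the sequence printed for Slc5a1, the base 159 before the start held 0 and 0 break ends in high, 1 and 0 in mid and 12 and 12 in negative, and the base 181 before it held 0 and 0 in high, 1 and 0 in mid and 4 and 8 in negative. The base 40 before the start had a different spread, with 1 and 1 in high, 0 and 3 in mid and 0 and 2 in negative. A count of 0 in a high library allows up to 3 break ends there, and the high libraries are the shallowest, so a difference at a single base was not detectable at this depth. All 250 upstream bases together held 1 and 2 break ends in high, 5 and 8 in mid, and 26 and 41 in negative.

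**Figure D3:**
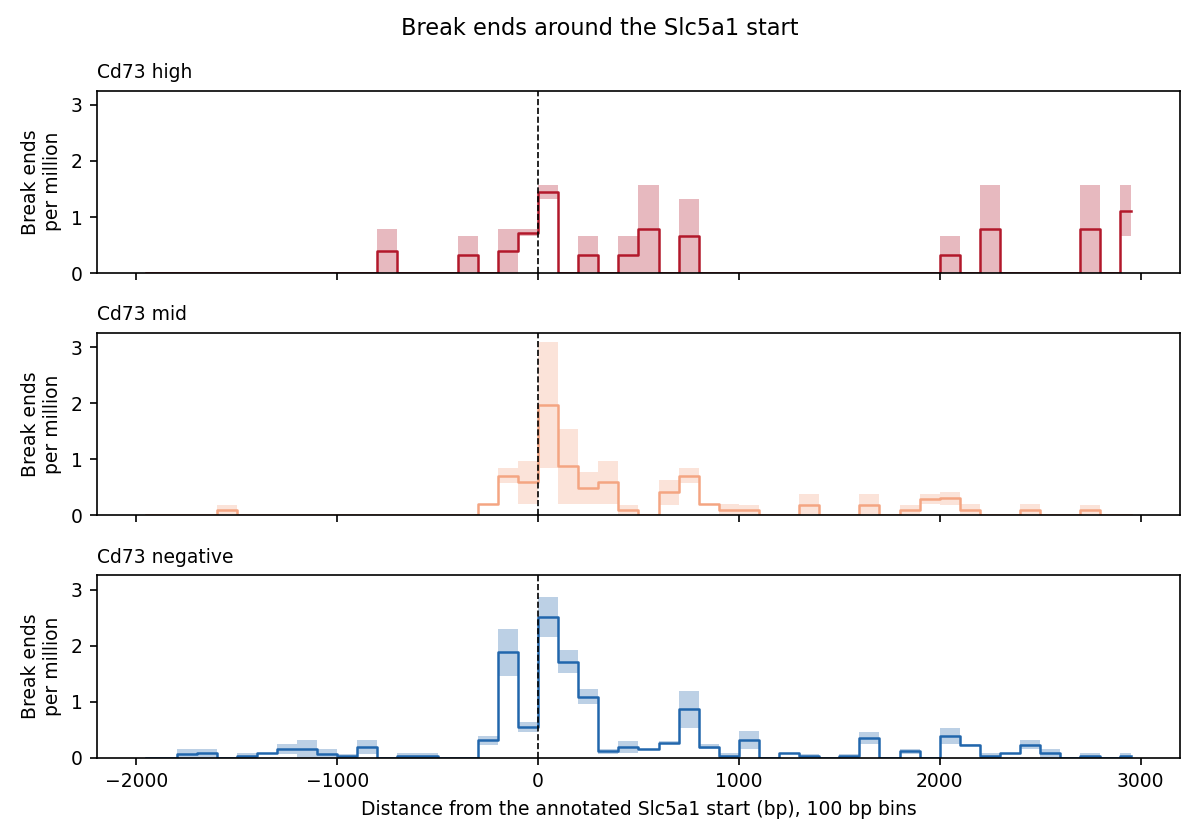
Break ends per 1000000 nuclear break ends in bins of 100 bp against distance from the annotated Slc5a1 start (dashed line), one panel per gate; the line is the mean of 2 libraries and the band spans them. Break ends rise around the start in each gate, and the high panel rests on 8 and 7 break ends within 1 kb of the start.

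The other starts were not dense. In negative, the start windows of Slc2a2, Slc2a5, Sis, Lct, Treh and Mgam exceeded between 13.1% and 40.2% of genes. The Sis window was less dense than its body in negative, at 0.840 ± 0.0346 times, and Mgam's was 2.77 and 2.58 times as dense as its body, against a median over all genes of 2.52 and 2.75. The start windows of Sis and Lct held too few break ends to be tested, and no start window of the other 5 members was called (0% of 10660 windows; 645, or 6.05%, had an unadjusted edgeR p under 0.05). Treh was the member with a positive value at its start, 0.87 ± 0.78 (edgeR adjusted p = 0.937), from 3 and 3 break ends in high, 5 and 13 in mid, and 27 and 15 in negative.

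Motifs of intestinal and general transcription factors were searched in the 250 upstream bases on both strands. TTTAT, the core that the intestinal factor Cdx2 binds, was found in Sis, Lct and Mgam and in 34.2% of all promoters. In the sequences printed, Sis has 4 matches and Lct has 2. GATAA, the core of GATA factors, was found in Lct (3 matches), Mgam (2) and Slc2a2 (1), and in 21.0% of all promoters. TATAAA was found in Sis and, 30 bases before the start, in Mgam, and in 12.4% of promoters; its complement contains TTTAT, so these matches overlap. Slc5a1, Slc2a5 and Treh held none of the 3 in this window.

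Within Slc2a5, break ends were concentrated in 1 kb of the gene, 13 kb after its start (4:150132344-150133343). This window held 1 and 3 break ends in high, 24 and 34 in mid, and 80 and 118 in negative. It made up 4.76% and 18.8% of the gene's break ends in high, 30.4% and 22.8% in mid, and 26.6% and 36.4% in negative. Per 1000000 nuclear break ends these were 0.657 and 2.36 in high, 5.04 and 6.59 in mid, and 6.13 and 9.38 in negative, so high lay below the other gates and mid overlapped negative. The 4 break ends of both high libraries together against the 198 of both negative libraries gave a ratio per nuclear break end of 0.185, with a 95% counting interval of 0.050 to 0.482. The window was chosen as the densest over the 6 libraries, each weighted equally after division by its total. The same break ends enter the ratio, so it is a description and not a test.

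Several bases of this window carried repeated break ends. Base 4:150133123 held 0 and 0 in high, 1 and 6 in mid, and 10 and 23 in negative, and base 4:150133119, 4 bases before it, held 0 and 0, 2 and 2, and 13 and 8. Positions with more than 1 break end held 9.52% and 12.5% of the break ends of the whole Slc2a5 body in high, 24.1% and 25.5% in mid, and 42.2% and 43.2% in negative. Each value lay above its library's share over all nuclear break ends: 6.32% and 6.38% in high, 12.8% and 16.6% in mid, and 25.5% and 26.2% in negative. In both negative libraries Slc5a1, Slc2a2 and Lct also lay above that share, and Sis, Treh and Mgam below it. Whether reads map uniquely there was not examined, and the annotation used gives gene extents without exons, so the window is not assigned to an exon or an intron.

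Outside the window Slc2a5 held 20 and 13 break ends in high, 55 and 115 in mid, and 221 and 206 in negative. With the densest 1 kb of each member left out, an alternative chosen after seeing the data, the log2 fold change of Slc2a5 was -0.37 for high minus negative (edgeR adjusted p = 0.736) and 0.08 for mid minus negative. The same step moved the other members to values between -0.84 for Treh and -0.03 for Mgam. Among 2350 genes of 20 to 30 kb, the densest 1 kb of a gene held a median of 15.3% and 16.9% of its break ends in the negative libraries, and Slc2a5 exceeded 86.1% and 93.6% of those genes there. In the high libraries that median was 14.3% and 14.3%, and Slc2a5 exceeded 10.3% and 63.1% of the genes.

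**Figure D4:**
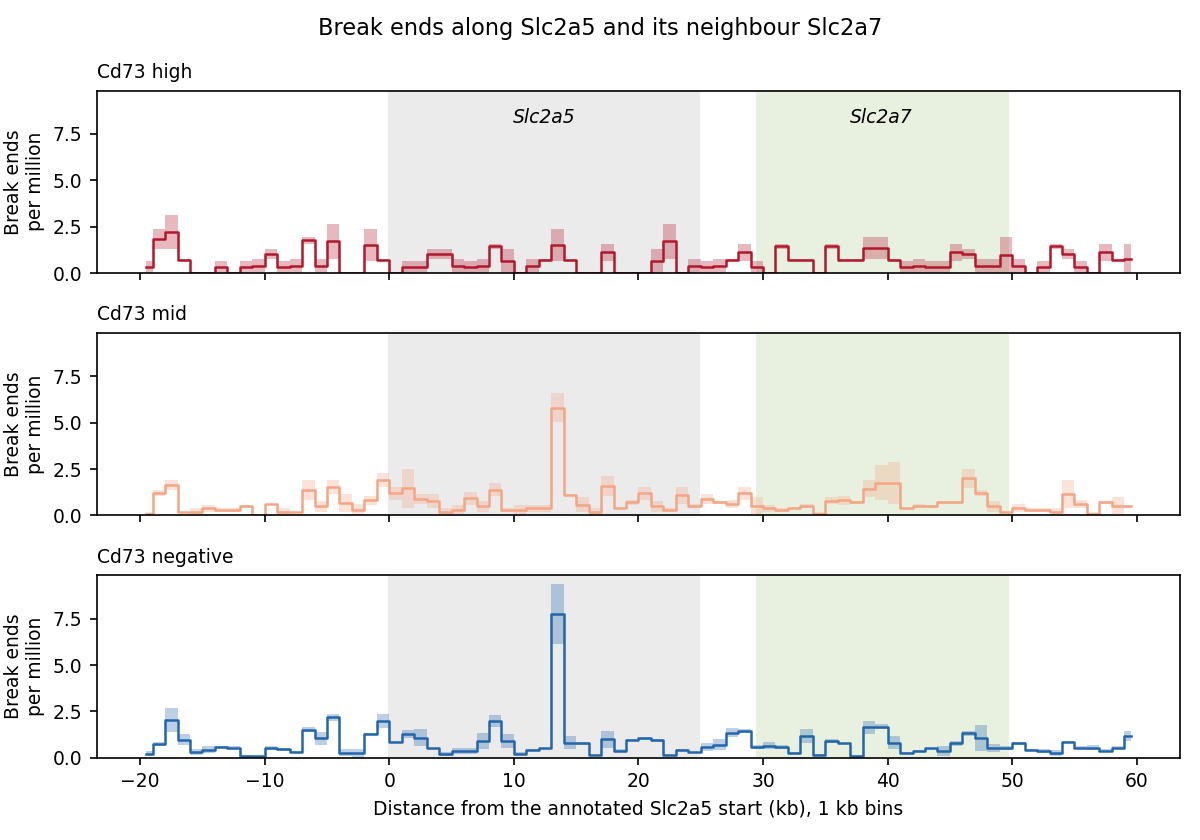
Break ends per 1000000 nuclear break ends in bins of 1 kb against distance from the annotated Slc2a5 start, one panel per gate; the line is the mean of 2 libraries, the band spans them, and shading marks Slc2a5 (grey) and Slc2a7 (green). The bin 13 kb after the start reaches 5.04 and 6.59 in mid and 6.13 and 9.38 in negative, against 0.657 and 2.36 in high.

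The neighbour of Slc2a5 on its right is Slc2a7, which encodes another member of the same transporter family, GLUT7, and begins 4665 bp beyond the end of Slc2a5. Slc2a7 had a log2 fold change of 0.15 ± 0.26 for high minus negative (edgeR adjusted p = 0.920), and the left neighbour Gpr157, a G protein-coupled receptor gene, had -0.33 ± 0.28 (edgeR adjusted p = 0.773). Slc2a5 held 0.840 and 0.941 times the break ends of Slc2a7 in high, 1.27 and 1.55 times in mid, and 1.63 and 1.67 times in negative. The gates did not overlap, and this ratio does not depend on how libraries are scaled. Slc2a7 was picked for the ratio after its values were seen, so the ratio is a description. How many other pairs of neighbouring genes are so separated was not counted. The difference between high and negative was -0.89 on the log2 scale, with p = 0.33 in an exact two-sided permutation test, the smallest that 2 libraries against 2 can give. It was -0.53 with the densest window left out.

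To set each member against the DNA around it, its density was divided by that of the 50 kb on each side. Slc2a2 had a ratio of 0.854 ± 0.0752 in high, 1.29 ± 0.0823 in mid and 1.55 ± 0.249 in negative (SD, n = 2 each). Sis had 0.839 ± 0.0998 in high, 1.06 ± 0.0239 in mid and 1.21 ± 0.00934 in negative, and Slc2a5 had 0.952 ± 0.131, 1.44 ± 0.353 and 1.44 ± 0.105. In the negative gate these 3 genes and Slc5a1 (1.71 ± 0.0410) were denser than their flanks in both libraries, and in the high gate both libraries of Slc2a2 and Sis lay below 1.

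For Slc5a1 the high libraries lay apart, at 0.993 and 1.71, the second of them between the negative libraries at 1.74 and 1.68. Treh was sparser than its pooled flanks in all gates, at 0.586 ± 0.133 in high, 0.798 ± 0.0871 in mid and 0.836 ± 0.120 in negative. Its sides differed, and only the downstream flank was denser than the body in every library, at 1.16 and 1.36 in negative. The upstream flank had 0.595 and 0.531 in negative, below the body at 0.809 and 0.711. In mid it had 0.563 and 0.519, against 0.579 and 0.741 in the body. In high it had 0.644 and 0.471, against 0.452 and 0.481. Lct was near 1 in negative and mid, and Mgam was higher in high, at 1.04 ± 0.0638, than in mid, at 0.903 ± 0.0462, and negative, at 0.902 ± 0.0215. The median over members of the log2 difference between high and negative was -0.52, against -0.05 over 17648 tested genes with break ends in body and flanks in every library. Slc2a2, Slc2a5, Sis and Treh were lower in high than in negative with no overlap, as were 23.7% of those genes, and Mgam was higher with no overlap, as were 17.2%, each with an exact two-sided permutation p of 0.33, the smallest possible, against 0.67 for Slc5a1 and Lct.

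**Figure D5:**
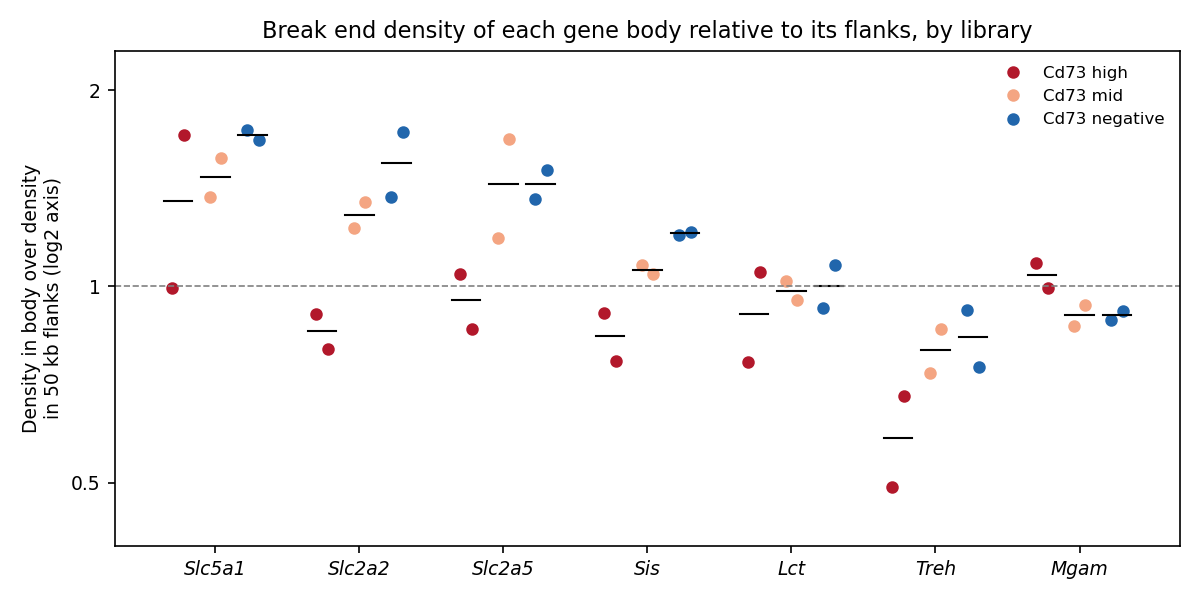
Density of each gene body divided by the density of the 50 kb on either side of it (log2 axis), one point per library, with black bars for gate means. The high points of Slc2a2 and Sis lie below 1 and their negative points above it, and the high libraries of Slc5a1 lie at 0.993 and 1.71.

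Other neighbours showed no called difference either. Ddx6, an RNA helicase gene to the left of Treh, had -0.61 ± 0.21 for high minus negative (edgeR adjusted p = 0.381), while Phldb1, which begins 2 bp beyond the right end of Treh, had -0.09 ± 0.16. Lct lies between Ubxn4, at 0.22 ± 0.21, and the replication helicase gene Mcm6, at -0.32 ± 0.27. Slc2a2 lies between the kinase gene Tnik, at 0.04 ± 0.13, and Eif5a2, at -0.20 ± 0.31, and Slc5a1 between Ywhah, at -0.68 ± 0.42, and Spon2, at 0.10 ± 0.65. The nearest genes to Sis are Slitrk3, 79.2 kb away, at -0.76 ± 0.38, and Otol1, 2860 kb away, at -0.21 ± 0.35. Beside Mgam, Moxd2, 109.7 kb away, had 0.18 ± 0.54 and the bitter taste receptor gene Tas2r138 did not pass the count filter. Their edgeR adjusted p-values lay between 0.381 and 0.982. Ddx6 (0.00357) and Slitrk3 (0.0436) had an unadjusted edgeR p under 0.05, as did 8.74% of all genes.

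Of 37 other genes of sugar handling, which include further transporters, sweet taste receptors, enzymes of fructose, galactose and glucose metabolism, gluconeogenic enzymes and regulators such as Mlxipl, Txnip and Cdx2, 36 were tested. High minus negative was negative for 20 and positive for 16, with a median of -0.03 against -0.45 for the 7 members and -0.00217 for all genes, and 0 were called by edgeR. An unadjusted edgeR p under 0.05 was found for 1 of the 36, Pfkp, the platelet isoform of phosphofructokinase, whose gene overlaps another (66.3 ± 6.59 CPM in high and 101.5 ± 1.06 CPM in negative; SD, n = 2 each; log2 fold change -0.61 ± 0.18, edgeR adjusted p = 0.325). Next by p among those lower in high came the phosphoglucomutase gene Pgm1 (-0.37 ± 0.22) and the sweet taste receptor gene Tas1r3 (-0.82 ± 0.56). Tas1r3 also overlaps another gene and had 4.10 and 6.67 CPM in high. Among those higher in high the smallest p were those of the transporter gene Slc2a12 (0.33 ± 0.20), which overlaps another gene, the lysosomal glucosidase gene Gaa (0.33 ± 0.24) and the hexokinase gene Hk1 (0.15 ± 0.15). In mid minus negative 18 of the 36 were negative, and in high minus mid 16 were, with 0 called by edgeR in both and unadjusted p under 0.05 for 2 and 0 genes.

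Break ends at marker genes of the cell types that a jejunal sort can hold are given for the 8 enterocyte and 6 lymphocyte genes. These lists were picked for display after their values were seen. Lymphocytes lie within the villus epithelium. Summed over the enterocyte list, break ends per 1000000 were 113.0 and 86.4 in high, 99.6 and 108.3 in mid, and 99.1 and 95.03 in negative, and over the lymphocyte list 78.2 and 65.2, 58.2 and 55.6, and 65.2 and 50.6. The enterocyte genes had a median log2 fold change of 0.22 for high minus negative, with 5 of 8 positive and 0 called (edgeR), and the 4 with an unadjusted p under 0.05 were Fabp1 (1.13 ± 0.41), Apoa4 (0.79 ± 0.40), Nt5e itself (0.62 ± 0.19) and Anpep (-0.52 ± 0.23), with adjusted p between 0.325 and 0.562. The lymphocyte genes had a median log2 fold change of 0.67 for high minus negative, with 5 of 6 positive and 0 called (edgeR; 2 with an unadjusted p under 0.05), and no gene of either list was at 0 in any library. The lists for goblet, Paneth, enteroendocrine, tuft, crypt stem and stromal cells had medians between -0.12 and 0.61 for high minus negative, with 0 called (edgeR; 1 goblet and 2 tuft genes with an unadjusted p under 0.05); the Paneth list rests on 1 tested gene of 4. For these counts, the shares over all tested genes in high minus negative were 8.74% with an unadjusted edgeR p under 0.05 and 0.00562% called. The part of other cell types in the values of the 7 members was not tested.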

How the data were processed

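The deposited enterocyte files list, per library, chromosome, position and a raw count of break ends, without strand; per the labels' protocols, ends were blunted, ligated to an adapter and amplified by in vitro transcription, and per the submitters' processing notes reads were aligned with BWA to GRCm38. The BWA version and any read filter or removal of duplicates are not stated there. The human libraries were not used. The 7 genes, the other lists and the tests were chosen with earlier results of these data known. Gene extents and upstream sequences came from RefSeq (GRCm38.p6; 21887 protein-coding genes, of which 3841 overlap another).

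Counts were summed over gene bodies and over 1 kb on each side of starts, and all 6 libraries (1272771 to 13043514 nuclear break ends) were fitted together by the quasi-likelihood F test of edgeR 4.0.16 in R 4.3.3, after TMM scaling and filterByExpr, with Benjamini-Hochberg adjustment over all genes tested. Single values were compared by exact permutation tests. The fit was tested on simulated counts for high minus negative: of 50 genes each changed 1.5, 2, 3 and 4-fold, 26%, 44%, 84% and 94% were recovered among 17690 genes, with 8 false calls. Every simulated gene had the same dispersion, 0.00665, and the changed genes were drawn at random from all counts, in either direction. The shares recovered are therefore not those for the 7 members. Named were all 7 members, the neighbouring gene on each side, the 3 other sugar handling genes with smallest p in each direction, and the 3 genes most like the members in pattern; single windows, bases, Slc2a7 as a ratio and marker lists shown were picked after their values were seen. Alternatives were DESeq2 1.42.0, no TMM, no filter, each position once, thinning, positions over 100 break ends left out, wider windows, other flanks, blocking on replicate, and leaving out each library. Counting and plotting used Python 3.11.15 with pandas 2.3.3, numpy 2.4.6, matplotlib 3.10.9 and scipy 1.17.1.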

Additional observations from a re-analysis of the deposited data

How the results depend on the processing

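No member was called under any alternative in any comparison. The number of genes called over the whole table was small and moved: for high minus negative, 1 gene was called in the report and 0 with no low count filter, 2 with thinning, 44 with a replicate block and between 0 and 2 with 1 library left out. For any difference among gates, 1 became 0 with library size scaling, no filter or wider windows, 38 with the replicate block, and between 0 and 2 with 1 library left out. For mid minus negative, 0 became 1 with each position counted once and 4 with the replicate block. The deviations of equally numbered libraries correlated by -0.05 (high and mid), -0.04 (high and negative) and 0.34 (mid and negative), and the labels do not say that a number marks a shared animal or batch, so the libraries were not treated as pairs. With the block, Sis joined Slc5a1 at an unadjusted p under 0.05 in mid minus negative.

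The median log2 difference against flanks, -0.52, was -0.29 with 20 kb flanks, -0.47 with 200 kb flanks and between -0.52 and -0.29 with 1 library left out. With 20 kb flanks Sis was at -0.29, and its high and negative libraries overlapped. With 200 kb flanks those of Slc5a1 (-0.45) and Lct (-0.40) no longer overlapped. For high minus negative, Slc2a5, Slc2a2, Sis, Slc5a1 and Treh stayed negative under every alternative in which they were tested (Treh was not tested when thinned). Log2 values of other members or comparisons turned sign; the causes were not tested. With each position counted once these were 0.0707 for Slc2a5 in mid minus negative and 0.0394 for the Slc5a1 start window. Thinning gave 0.14 (Lct) and 0.0436 (Mgam) in mid minus negative and -0.0484 (Mgam) in high minus mid. Slc2a5 in mid minus negative was 0.0809 without the densest windows, and Lct against flanks was 0.40 with flank positions in other genes left out. With 1 library left out, high minus negative ranged between -0.57 and 0.0654 for Lct and between -0.0728 and 0.0145 for Mgam, and Slc2a5 in mid minus negative between -0.46 and 0.25. In high minus mid, Slc5a1 ranged between -0.27 and 0.0243 and Lct between -0.44 and 0.19. Start windows ranged between -0.99 and 0.24 for Slc2a2 and between -1.03 and 0.25 for Mgam, and values against flanks between -0.78 and 0.000881 for Slc5a1 and between -0.39 and 0.0741 for Lct. Depth limits the high gate most: Treh rests there on 9 and 8 break ends.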

Other observations

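Across the 6 libraries, the log2 CPM of Slc5a1 and Sis followed each other most closely among the 21 pairs of members (Pearson r = 0.94), followed by Slc2a2 and Sis (0.93), and the lowest value was that of Slc2a5 and Mgam (-0.31). The points share their libraries, depth and gate, so these are descriptions with no test. Of 17802 genes outside the 7, 356 had r over 0.9 with the mean of the 7. The highest were Gapdh, a glycolytic enzyme gene (r = 0.997), Prrg2 (0.996) and Mcm7, a replication helicase gene (0.992). Mcm7 had 10.9 and 15.0 CPM in high, 21.2 and 24.4 CPM in mid, and 28.4 and 28.3 CPM in negative. For Slc2a5 alone, 408 genes had r over 0.9, and the highest were Fahd2a (0.997), Slirp (0.997) and Qsox1 (0.995), each with its highest value in mid M2.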
